A study of Homo sapiens with 11 samples.

Results

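The exon array used in this series carries 1399022 probe sets, and 1028028 of them have no gene symbol in the platform's annotation table. Of these unlisted probe sets, 17171 had an estimate on all 11 arrays and a mean log2 signal of at least 9.0, and they are the members described here. They make up 1.69% of the 1017704 unlisted probe sets with an estimate on every array. The members were chosen on their signal, so their level is a description and not a finding. A probe set missing from the annotation table is unnamed here, which does not mean that it lies outside a gene.

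The arrays measured total RNA from T-REx-293, a HEK293 derivative in which tetracycline switches on expression from a plasmid. All 11 cultures carried a plasmid encoding GFP and received 2.5 µg/mL tetracycline for 72 h, and they differed in the construct that was induced. There were 2 arrays of an empty vector, 3 of an shRNA against GFP, and 3 each of shRNA A and shRNA B, which both target Tat-SF1. The series' design text names the 5 empty vector and GFP shRNA arrays as control and the 6 Tat-SF1 shRNA arrays as knockdown, and calls the replicates biological. The third empty vector array failed the submitters' quality control and was not analysed here. Whether the transfected lines were clones or pools is not given in the sources used here.

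Tat-SF1, encoded by HTATSF1, is a nuclear protein known as a cofactor of transcription elongation and a partner of the U2 small nuclear ribonucleoprotein of the spliceosome. The exon array holds short probes for known exons and also for predicted exons, expressed sequence tags and other transcribed stretches, many of which have no gene in the platform's annotation. A probe set there can be lit by an exon that the annotation missed, by a non-coding RNA, by a retained intron or by a related sequence elsewhere. Fewer cells making an RNA and less RNA per cell cannot be told apart in such bulk samples.

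HTATSF1 was checked first. Its gene value, the median of 14 probe sets, was 8.503 ± 0.12 (SD, n = 5) on the control arrays and 8.21 ± 0.057 (SD, n = 6) on the knockdown arrays, a difference of -0.30 on the log2 scale (exact two-sided permutation test over 462 splits, p = 0.0022). The highest knockdown array stood at 8.29 and the lowest control array, the second empty vector, at 8.32. Array medians lay between 7.90 and 7.91 and correlations between arrays between 0.941 and 0.962. Of the markers of HEK293-derived lines, NEFL had a median of 9.16, whereas NEFM (7.93), PAX2 (7.70) and LHX1 (7.72) lay near the table's median of 7.91. Markers of fibroblasts, endothelial cells, blood cells and hepatocytes lay between 7.67 and 7.92, and of the epithelial markers KRT8 lay at 9.54, KRT18 at 9.14, EPCAM at 8.70, CDH1 at 7.91 and KRT5 at 7.88.

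Most members were only moderately bright. The median of their mean levels was 9.76 and the quartiles were 9.30 and 10.56, so 6447 members lay between 9 and 9.5, 3701 between 9.5 and 10, 4172 between 10 and 11, 1859 between 11 and 12, 734 between 12 and 13, and 258 at 13 or above. For comparison, 45010 probe sets with exactly 1 gene symbol met the same limit, which is 12.97% of those with an estimate on all arrays, and their median was 9.60. Signal depends on the probes as well as on the RNA, so the order of levels is an order of signal and not of RNA amount. Just inside the limit were probe sets 4011353, 3939042 and 2533303, each with a mean of 9.00, and just outside it 3548749, 2817530 and 3728742, also at 9.00 after rounding.

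**Figure D1:**
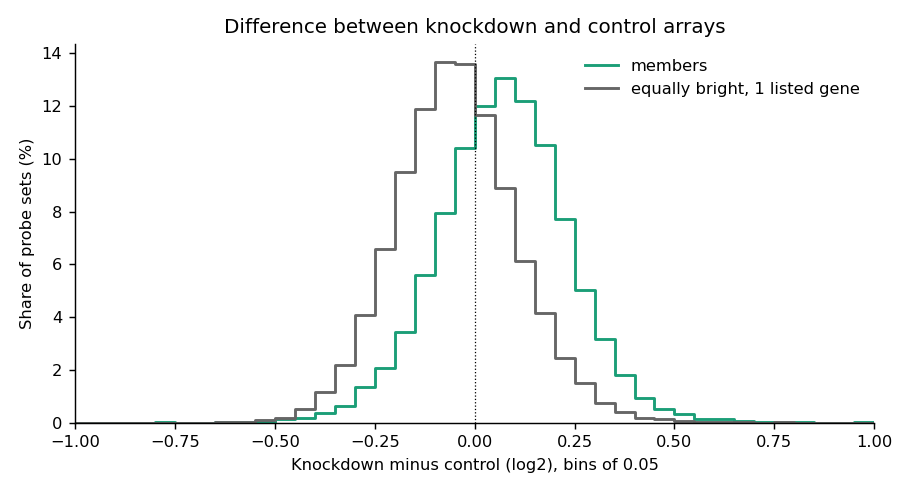
Distribution of the difference between knockdown and control means (log2, bins of 0.05, shown from -1 to 1) for the 17171 members and for the 45010 equally bright probe sets with 1 listed gene, as a share of each set in percent. The members' curve is centred to the right of 0 and the listed probe sets' curve to the left of it.

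The 12 brightest members had means from 13.94 to 14.13 and varied little between arrays. Probe set 4029927 stood at 14.13, and its nearest listed neighbours by number belong to TTTY23 and TTTY15, testis-specific transcripts of the Y chromosome. Its place in the numbering does not show that a Y transcript gives the signal, and the source was not tested. Probe set 3563355 stood at 14.10, only 3 numbers below a probe set of RPL36AL and 23 above one of RPS29, both ribosomal protein genes. Probe set 3580800 at 14.04 had a within-construct SD of 0.028 and lies next in number to BAG5, a co-chaperone gene. It read 14.001 and 14.06 on the empty vector arrays, 14.04, 14.05 and 14.02 on the GFP shRNA arrays, 14.003, 14.06 and 14.06 on the shRNA A arrays and 14.05, 14.07 and 14.02 on the shRNA B arrays. All 4 constructs overlapped there. The others were 3658545 (14.03, SLC6A10P to CCNYL3), 4037586 (13.997, ahead of the mitochondrial ND1), 2603768 (13.98, NPPC to ECEL1P2), 3198510 (13.97, among the numbers of PTPRD), 3229196 (13.97, BRD3 to C9orf104), 2798681 (13.96, 1 number below EXOC3), 2951086 (13.95, 2 above RPL35), 2450243 (13.95, ATP6V1G3 to C1orf98) and 3351127 (13.94, CEP164 to IL10RA). Their knockdown minus control differences lay between -0.053 and 0.047. The narrow spread was shared by the top of the scale as a whole: the median within-construct SD was 0.096 for the 258 members at 13 or above, 0.083 for the 355 listed probe sets at that level, and 0.184 for all members.

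Probe set numbers of this array follow the genome closely enough to speak of neighbours. Where 2 successive listed genes were both found in RefSeq (GRCh38.p14, used here for names and order only), 86.5% shared a chromosome, 94.9% of those with both strands given shared a strand, and in 96.7% of these the start positions rose with the probe set number. Of 19536 symbols, 16450 were current RefSeq symbols, 2965 were updated through a synonym and 121 were not matched.

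Most members stood alone. A run was defined as 2 or more members with no other probe set of the table between them, and 13933 members were in no run. The other 3238 members (18.9%) formed 1287 runs, of which 336 held at least 3 members and 59 at least 5. Listed probe sets of the same brightness were found in runs more often, at 47.8%. Neighbouring members of a run varied together over the 11 arrays with a median Pearson r of 0.49 over 1951 pairs, close to the 0.51 of neighbouring bright probe sets of 1 listed gene. Consecutive members that were not in the same run had a median r of 0.16 over 15219 pairs. These are descriptions, and all pairs share the same 11 arrays and their normalization.

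The longest run held 30 members, numbered 3476742 to 3476771. The run's mean level was 11.87, with single members from 10.16 to 12.74. Its mean over members read 12.29 and 11.70 on the empty vector arrays, 11.96, 12.15 and 11.74 on the GFP shRNA arrays, 11.98, 11.84 and 11.52 on the shRNA A arrays and 11.89, 11.70 and 11.78 on the shRNA B arrays. The groups overlapped, with the second empty vector array and the third GFP shRNA array among the knockdown values and the first shRNA A array above the first GFP shRNA array. Every one of the 30 members had a lower mean in knockdown, by a median of -0.19 and by -0.30 to -0.046. The run averaged 11.97 ± 0.25 (SD, n = 5) in control and 11.78 ± 0.16 (SD, n = 6) in knockdown. No member of the run passed the adjusted threshold (smallest adjusted p = 0.64, limma). Members of 1 run may share a transcript and are not replicates.

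UBB, a polyubiquitin gene, lies in the RefSeq order between PIGL and TRPV2 on chromosome 17, a gap named here after its values were seen. Its 6 members averaged 11.85 and 11.84 on the empty vector arrays, 11.90, 11.88 and 11.84 on the GFP shRNA arrays, 11.73, 11.73 and 11.56 on the shRNA A arrays and 11.69, 11.76 and 11.61 on the shRNA B arrays. All 6 members were lower and the groups did not overlap, at 11.86 ± 0.026 (SD, n = 5) in control and 11.68 ± 0.079 (SD, n = 6) in knockdown. Taken singly, 2 of the 6 members had groups that did not overlap (0.515% of the whole table in this direction), and the smallest adjusted p was 0.12 (limma). The annotation lists UBB probe sets elsewhere in the numbering, so these members are not assigned to it. The run 3714880 to 3714884 (5 members, C20orf191 to UBB) ends 1 number below such a UBB probe set. There the groups overlapped, with array means of 11.79 to 11.90 in control and 11.64 to 11.84 in knockdown.

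Runs near NPIP, a gene family that is repeated along chromosome 16, were the next feature. The run 3652140 to 3652157 (18 members, NPIP to UQCRC2, mean level 10.48) and the run 3684264 to 3684279 (16 members, IMAA to NPIP, mean level 10.51) lie far apart in number. Their per-array means differed by at most 0.083 and had a Pearson r of 0.99 over the 11 arrays. The first read 10.29 and 10.73 on the empty vector arrays, 10.58, 10.30 and 10.41 on the GFP shRNA arrays, 10.33, 10.82 and 10.59 on the shRNA A arrays and 10.37, 10.49 and 10.33 on the shRNA B arrays. The second read 10.34 and 10.71, then 10.66, 10.37 and 10.46, then 10.34, 10.84 and 10.62, then 10.39, 10.52 and 10.34 in the same order. The second empty vector and the second shRNA A array were highest in both. Neither run separated knockdown from control (median differences 0.031 and 0.020).

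Members were dense among the numbers of listed genes of the mitochondrial genome. CYTB and ND6 are the genes of cytochrome b and of a complex I subunit. In the numbers between them, 48 of 55 unlisted probe sets were members, the most in any gap. CYTB and ND6 did not keep the RefSeq order without a strand conflict. The gap is therefore a stretch of numbers and is not taken as a genomic interval between these genes. The run 4037720 to 4037736 there (17 members, mean level 10.67) read 10.62 and 10.27 on the empty vector arrays, 10.88, 10.84 and 10.42 on the GFP shRNA arrays, 10.73, 10.62 and 10.68 on the shRNA A arrays and 10.60, 10.92 and 10.74 on the shRNA B arrays. The second empty vector array was lowest and the groups overlapped, with 12 of 17 members higher in knockdown by a median of 0.081 over the run. The run 4037696 to 4037713 (15 members, mean level 10.46) averaged 10.42 ± 0.19 (SD, n = 5) in control and 10.49 ± 0.13 (SD, n = 6) in knockdown, with 11 of 15 members higher and the groups overlapping. The run 4037574 to 4037594 lies just ahead of ND1, where RefSeq lists the mitochondrial ribosomal RNA genes RNR1 and RNR2, and had a mean level of 12.20 over 14 members. It read 12.16 and 12.04 on the empty vector arrays, 12.27, 12.32 and 12.13 on the GFP shRNA arrays, 12.29, 12.10 and 12.07 on the shRNA A arrays and 12.16, 12.50 and 12.18 on the shRNA B arrays, with knockdown and control overlapping. The 5 members between ND2 and COX1, where RefSeq lists the transfer RNA genes TRNW, TRNA, TRNN, TRNC and TRNY, averaged 10.17 on the second empty vector array and 11.12 to 11.96 on the 10 others.

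The run 3641845 to 3641855 showed the largest difference among the 8 longest runs. It lies between PRKXP1, a pseudogene, and LINS1 on chromosome 15. Counting genes that lie wholly between them without a strand conflict, RefSeq places only RNU6-181P there, a small nuclear RNA pseudogene. The 11 members averaged 9.53 and 9.99 on the empty vector arrays, 9.39, 9.92 and 9.99 on the GFP shRNA arrays, 9.79, 10.80 and 10.51 on the shRNA A arrays and 10.06, 10.46 and 9.82 on the shRNA B arrays. The first shRNA A and the third shRNA B array lay within the control range. All 11 members were higher in knockdown, by 0.36 to 0.61, and the run averaged 9.76 ± 0.28 (SD, n = 5) in control and 10.24 ± 0.41 (SD, n = 6) in knockdown. A second run of 5 members in the same gap, 3641837 to 3641841, differed by a median of 0.51, and all 17 members of the gap were higher. None passed the adjusted threshold (smallest adjusted p = 0.49, limma). Because the run was singled out for its difference, no test of it is given.

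**Figure D2:**
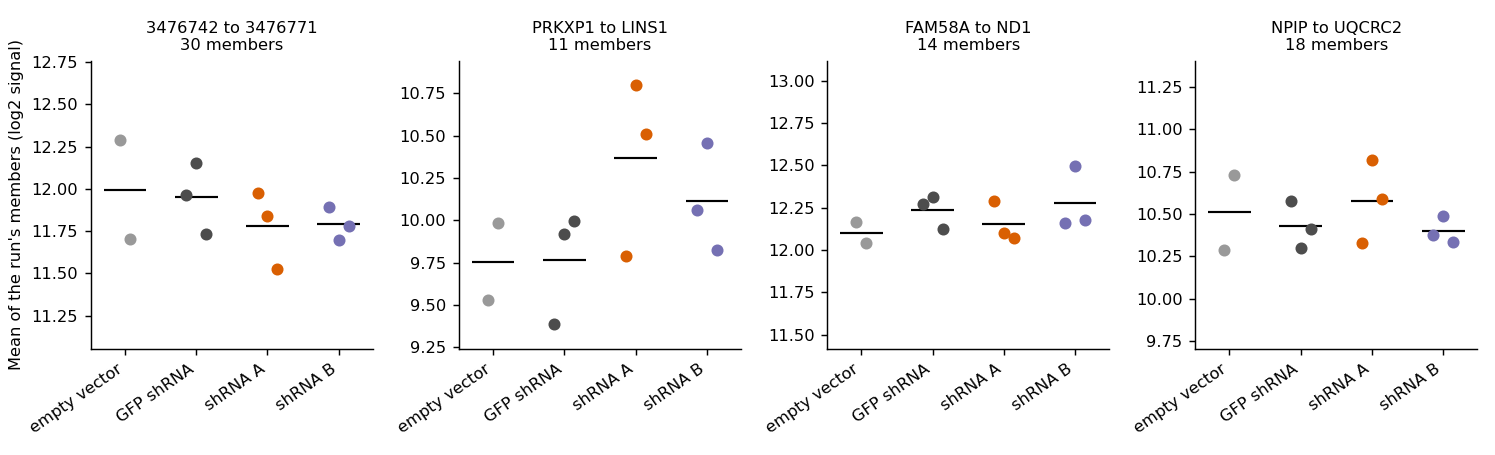
Mean log2 signal over the members of 4 long runs on each array, by construct, with the construct mean as a line. Every panel spans the same 1.7 log2 units. Knockdown and control arrays overlap in all 4 runs, and the run 3476742 to 3476771 and the PRKXP1 to LINS1 run differ in opposite directions.

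The eighth of the longest runs, 4048792 to 4048801 between C6orf35 and PDGFA (10 members), had a mean level of 11.07 and was higher in knockdown for all 10 members, by a median of 0.14. Its shRNA A arrays differed from control by a median of 0.30 and its shRNA B arrays by 0.014. Those comparisons share the 5 control arrays. C6orf35 and PDGFA did not keep the RefSeq order, and PDGFA lay 618 numbers above the run's last member. In the 59 runs of at least 5 members, every member was higher in 9 runs and every member was lower in 5.

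Flanking genes were read from the nearest probe set with exactly 1 symbol on each side. Flanks are neighbours in number only, and not all pairs named in this report kept the RefSeq order. For 4451 members (25.9%) both flanks carried the same symbol, which places the member within the numbers of 1 gene, against 27.4% of all unlisted probe sets with an estimate. The other 12720 lay between 2 genes, in 6114 gaps. NPIP held most members within its numbers (26), followed by GLUD1 (16), which encodes glutamate dehydrogenase, EEF1A1 (13), a translation elongation factor, and NBPF10 (10). GLUD1 has a single stretch of listed probe sets with a median level of 7.98, and the 16 members among them averaged 10.40. HSPD1, a mitochondrial chaperonin with 8 members at 11.24, had all 8 lower in knockdown, by a median of -0.13. Its listed probe sets lie in 4 stretches of numbers, and the gene's own value differed by only -0.013. Most members within the numbers of 1 gene went the other way, with 74.5% higher in knockdown.

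Members within a gene's numbers varied little with the listed probe sets of that gene. Over 4134 members in 2969 genes with at least 4 probe sets for a gene value, the median Pearson r between a member and its gene over the 11 arrays was 0.0044. Bright listed probe sets set against the other probe sets of their own gene had a median r of 0.46 (44018 probe sets). The median knockdown minus control difference was 0.093 for these members and -0.026 for the genes that surround them. The r was 0.13 for the 349 such members in runs and -0.0050 for the 3785 single ones. These correlations are descriptions over arrays that all points share.

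In 4513 gaps the flanks kept the RefSeq order on 1 chromosome and without a strand conflict, and these gaps held 8996 members. RefSeq places a protein-coding gene that the annotation gives to no probe set in gaps that hold 2360 of them (26.2%), against 15.3% of all unlisted probe sets in such gaps. Such genes had to lie wholly between the flanks without a strand conflict, and names made of LOC and digits were left out. In 482 gaps there was exactly 1 such gene. No member is assigned to it, since the files give no coordinates. Members were 2.11% of the unlisted probe sets in gaps with a histone gene, 1.92% with a transfer RNA gene, 1.82% with a microRNA, 1.72% with a small nucleolar or Cajal body RNA, and 1.605% with a ribosomal protein gene or pseudogene. They were 1.43% with a 7SK, 7SL, Y, vault or ribonuclease RNA, 1.40% with a small nuclear RNA, 1.33% with a ribosomal RNA and 1.17% with a long non-coding RNA. The share over all ordered gaps was 1.614%, so 4 classes lay above it and 5 below. Classes were set by the start of the symbol, so a class can include pseudogenes, and a gap can hold several of these classes.

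Of the gaps with exactly 1 unlisted coding gene, 53 held at least 8 members, 709 members in all, of which 65.7% were lower in knockdown. Over all 1667 members in gaps with exactly 1 such gene, 844 were higher and 823 lower, with a median difference of 0.0038. The lower share thus belongs to the gaps with many members. The mean over a gap's members was lower in knockdown in 39 of the 53 gaps, lower on the shRNA A arrays in 41 and on the shRNA B arrays in 34, against the same 5 control arrays. Differences ran from -0.32 to 0.13, and in none of the 53 did the 6 knockdown arrays all lie on one side of the controls. The gap of UBA2, a subunit of the SUMO-activating enzyme, on chromosome 19, had 12 of 18 members lower. It averaged 10.69 ± 0.12 (SD, n = 5) in control and 10.66 ± 0.11 (SD, n = 6) in knockdown, and the groups overlapped. None of the 709 members passed the adjusted threshold.

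**Figure D3:**
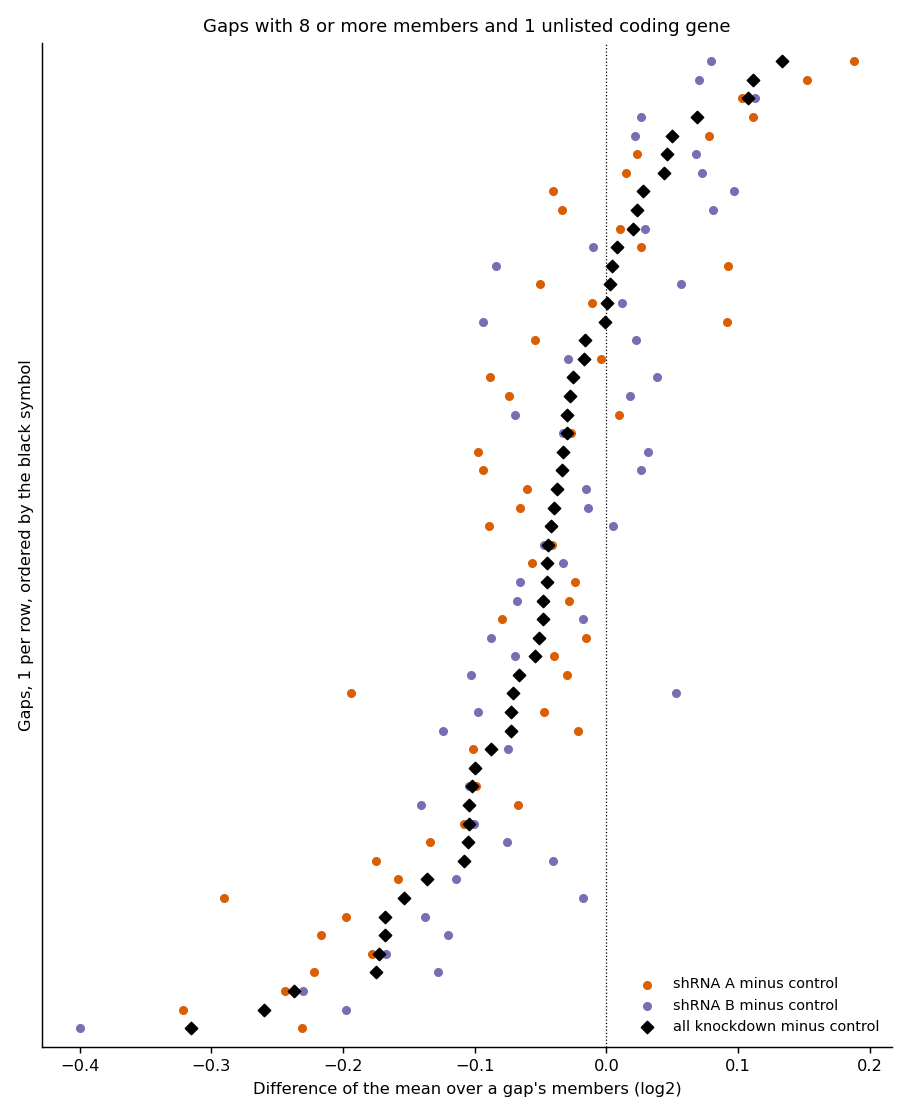
Difference from control (log2) of the mean over a gap's members for the 53 gaps with at least 8 members and exactly 1 unlisted coding gene, for shRNA A, shRNA B and all knockdown arrays, ordered by the last. Each row is 1 gap. For all knockdown arrays 39 rows lie left of 0, and the values run from -0.32 to 0.13.

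No member passed the test in any comparison of the constructs. For knockdown against control, 0 of 17171 members had an adjusted p under 0.05 (limma with Benjamini-Hochberg adjustment over 1379735 probe sets), where the whole table had 17 calls, or 0.00123% of the probe sets tested. Without the variance trend, limma called 1 member, probe set 2517709. The fitted trend gave the brightest members standard errors far above their own spread (3580800: SE 0.48, within-construct SD 0.028). Of the 258 members at 13 or above, 0 had an unadjusted p under 0.05, and of the 734 from 12 to 13, 10 did. For these members the lack of calls says little about change. In simulated data the test also missed most planted changes of 0.5, so 0 calls do not show that nothing changed. At an unadjusted p under 0.05 there were 3107 members (18.1%), 2346 higher and 761 lower, against 7.53% of the whole table and 21.8% of the equally bright listed probe sets, of which 1737 were higher and 8060 lower. There were also 0 members called in the other 5 comparisons by the same test. For shRNA A against control the whole table had 0.000145% called, and 2163 members (12.6%) had an unadjusted p under 0.05, against 6.09% of the table. For shRNA B against control 0.000217% were called, and 2729 members (15.9%) had an unadjusted p under 0.05, against 7.39%. These comparisons share the 5 control arrays. For shRNA B against shRNA A 0% were called, and 887 members (5.17%) had an unadjusted p under 0.05, against 4.89%. For GFP shRNA against empty vector 7.25e-05% were called, and 436 members (2.54%) had an unadjusted p under 0.05, against 4.8%. For any difference among the 4 constructs 0.000145% were called, and 1752 members (10.2%) had an unadjusted p under 0.05, against 6.19%. Among the equally bright listed probe sets that share was 17.5% for shRNA A and 18.3% for shRNA B against control. It was 7.04% for shRNA B against shRNA A, 5.96% for GFP shRNA against empty vector and 15.9% for any difference. Each listed share lay above that of the members.

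The members as a whole sat slightly higher on the knockdown arrays. Their median difference was 0.072 on the log2 scale and 11627 of 17171 (67.7%) had a higher mean in knockdown, against a median of 0.00020 and 50.3% over all probe sets tested (49.7% lower). The equally bright listed probe sets went the other way, with a median of -0.050 and 36.4% higher. The interquartile ranges were broad beside these medians, -0.034 to 0.17 for members and -0.15 to 0.049 for listed probe sets. Of the members, 286 had every knockdown array above every control array (1.67%; 0.327% of the whole table) and 161 had every knockdown array below (0.938%; 0.515% of the whole table). For listed probe sets these shares were 0.324% and 3.58%. The member median was 0.066 for shRNA A and 0.072 for shRNA B, each against the same 5 control arrays, and 0.0042 for shRNA B minus shRNA A. GFP shRNA minus empty vector had a member median of 0.028 and a listed median of 0.052.

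**Figure D4:**
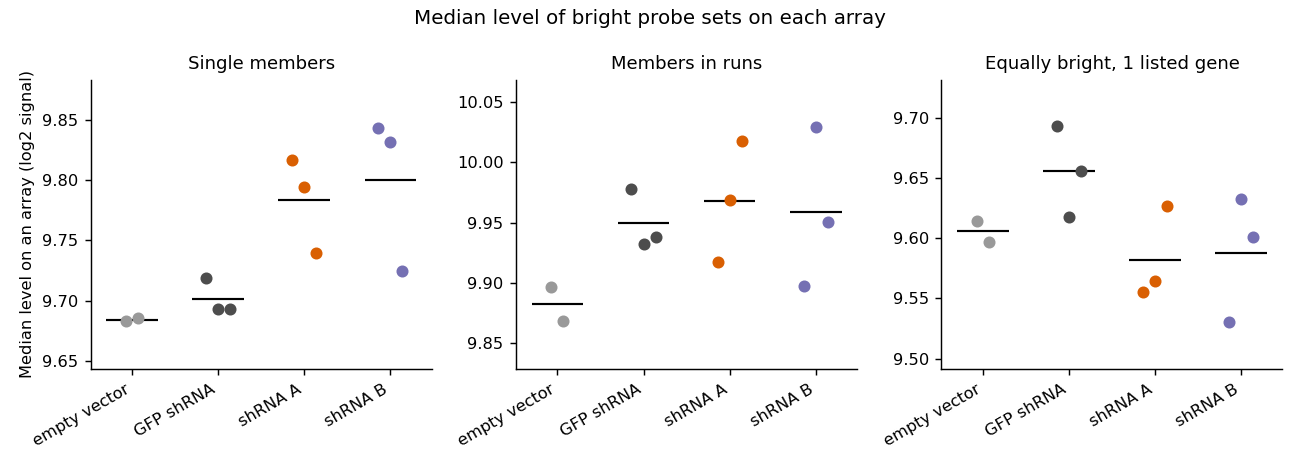
Median log2 signal on each array of the 13933 single members, the 3238 members in runs and the 45010 equally bright listed probe sets, by construct, with the construct mean as a line. Each panel spans 0.24 log2 units. The knockdown arrays lie above the controls for single members and overlap them in the other panels.

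The shift was larger in single members. Their median on an array was 9.68 and 9.69 for the empty vector, 9.72, 9.69 and 9.69 for the GFP shRNA, 9.82, 9.79 and 9.74 for shRNA A and 9.84, 9.83 and 9.72 for shRNA B. The lowest knockdown value, 9.725 on the third shRNA B array, lay just above the highest control value, 9.719 on the first GFP shRNA array. The mean was 9.69 ± 0.014 (SD, n = 5) in control and 9.79 ± 0.049 (SD, n = 6) in knockdown. Members in runs overlapped between the groups, at 9.92 ± 0.042 (SD, n = 5) and 9.96 ± 0.053 (SD, n = 6), and so did the listed probe sets, at 9.64 ± 0.039 (SD, n = 5) and 9.58 ± 0.041 (SD, n = 6). Among the knockdown arrays, the first shRNA B array had the highest single-member median and the lowest listed median (9.53), and the third array of each Tat-SF1 shRNA had the lowest single-member median of its construct, with listed medians of 9.63 and 9.60. The second shRNA B array had the next highest single-member median together with the highest listed median of the knockdown arrays (9.63). What part the level of the listed probe sets has in this difference was not tested. The 4 arrays whose names carry a suffix are all knockdown arrays, and the 2 knockdown arrays without it had a member median 0.093 above the 5 controls. Both of those 2 are shRNA A arrays. Every shRNA B array carries the suffix, so suffix and construct cannot be told apart for shRNA B.

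**Figure D5:**
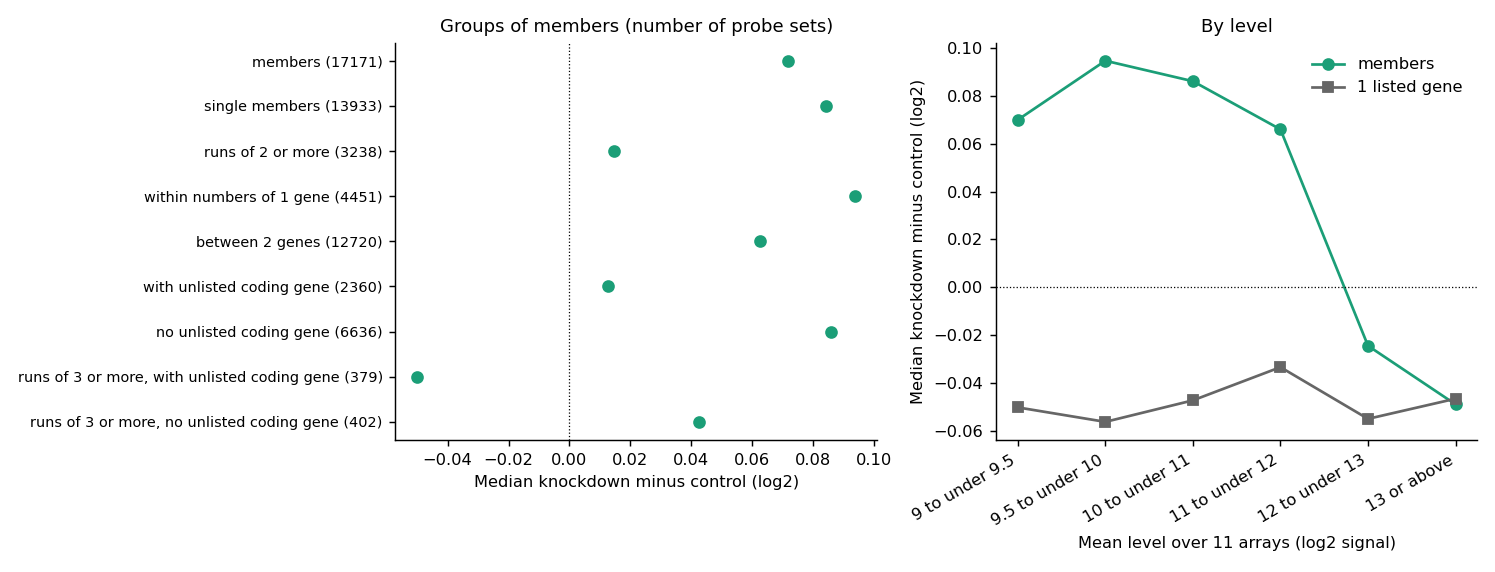
Median knockdown minus control difference (log2) for groups of members, with the number of probe sets in each (left), and for members and equally bright listed probe sets by mean level (right). Members within the numbers of 1 gene lie farthest to the right at 0.094, runs of at least 3 in gaps with an unlisted coding gene lie left of 0 at -0.050, and by level the members' median is below 0 from 12 upward.

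The difference varied with where a member lies and with its level. Single members had a median difference of 0.084 (70.9% higher) and members in runs 0.015 (54.2% higher). Members within the numbers of 1 gene had a median of 0.094 and members between 2 genes 0.062. In ordered gaps, members had a median of 0.013 where RefSeq places an unlisted coding gene and 0.086 where it places none. The 379 members in runs of at least 3 in gaps with such a gene had a median of -0.050 and 38.0% were higher, close to the -0.050 of the listed probe sets, and the 402 in runs of at least 3 in gaps without one had 0.043. By level, the median was 0.070 from 9 to 9.5, 0.095 from 9.5 to 10, 0.086 from 10 to 11 and 0.066 from 11 to 12. It was -0.024 from 12 to 13 and -0.049 at 13 or above, where the listed probe sets had -0.055 and -0.047.

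Among members whose 6 knockdown arrays all lay above the 5 controls, the largest differences were found at 5 probe sets, chosen for that difference and given without a test. Probe set 2537014, between NEU4 and FAM110C, read 8.07 and 8.84 on the empty vector arrays, 9.13, 7.99 and 8.96 on the GFP shRNA arrays, 9.56, 9.52 and 9.33 on the shRNA A arrays and 10.17, 9.37 and 9.43 on the shRNA B arrays. The difference was 0.97 and rests on controls that spread over more than 1 log2 unit. Probe set 3861159, next to WDR87, differed by 0.80, from 8.67 ± 0.18 (SD, n = 5) to 9.46 ± 0.22 (SD, n = 6). The others were 3082552 within FBXO25 (0.75), 2395582 within SLC2A5, a fructose transporter gene (0.74), and 3434329 between SIRT4 and COX6A1 (0.66). Controls also spread widely for 3082552 (8.47 to 9.45) and 2395582 (8.76 to 9.87). The second GFP shRNA array was the lowest control for both, as it was for 2537014.

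The 5 largest differences in the other direction were at 3670028 between WWOX and DYNLRB2 (-0.60), 3844021 between ZSCAN22 and ZNF584 (-0.59), 3256757 between CFLP1 and LIPJ (-0.58), 2491303 between TMSB10 and RPS2 (-0.58) and 2604817 between MSL3L2 and GBX2 (-0.50). Probe set 2491303 read 10.36 and 10.41 on the empty vector arrays, 10.54, 10.41 and 10.54 on the GFP shRNA arrays, 9.79, 9.93 and 10.19 on the shRNA A arrays and 9.45, 9.88 and 10.01 on the shRNA B arrays. It lies 6 numbers above TMSB10, which encodes a thymosin that binds actin, and 4 below a probe set of the ribosomal protein gene RPS2. The 2 members of that gap averaged 11.64 to 11.78 on the control arrays and 11.29 to 11.51 on the knockdown arrays.

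The smallest adjusted p of a member was at probe set 2517709, within the numbers of DFNB59, a gene of hearing. It read 10.05 and 10.10 on the empty vector arrays, 9.95, 10.03 and 10.06 on the GFP shRNA arrays, 9.74, 9.59 and 9.72 on the shRNA A arrays and 9.65, 9.68 and 9.60 on the shRNA B arrays. The groups did not overlap, and the difference was -0.37 ± 0.037 (SE; adjusted p = 0.055, limma). Next came 2913921 between CD109 and SENP6, at 10.22 ± 0.048 (SD, n = 5) in control and 10.63 ± 0.096 (SD, n = 6) in knockdown (adjusted p = 0.11, limma), and 3946921 between TEF and CSDC2, at 9.98 ± 0.060 (SD, n = 5) and 9.62 ± 0.086 (SD, n = 6) (adjusted p = 0.11, limma).

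One unlisted probe set just below the limit passed the test. Probe set 3555331 is the next number after a probe set of RPPH1, the RNA of ribonuclease P, and its mean of 8.86 keeps it out of the set. It read 7.90 and 7.88 on the empty vector arrays, 7.89, 7.93 and 7.87 on the GFP shRNA arrays, 9.70, 9.66 and 9.70 on the shRNA A arrays and 9.68, 9.56 and 9.65 on the shRNA B arrays. The difference was 1.76 ± 0.026 (SE; adjusted p = 3.4e-09, limma), larger than that of any member, and was 1.79 for shRNA A and 1.73 for shRNA B against the same 5 controls. Its control values lay near the table's median of 7.91 and the table holds no detection calls, so whether they stand above background is not known and the fold in RNA may be larger.

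A few members varied between arrays of the same construct. Over the 11 arrays, 78 members (0.454%) had a range above 2 log2 units, against 53 bright listed probe sets (0.118%). Probe set 2726619, between OCIAD1 and MLXIPL, read 11.37 and 7.86 on the empty vector arrays, 7.96, 12.29 and 7.92 on the GFP shRNA arrays, 8.10, 8.01 and 7.91 on the shRNA A arrays and 8.00, 12.29 and 8.00 on the shRNA B arrays. It was high on the first empty vector, second GFP shRNA and second shRNA B arrays and near the table's median on the other 8. Probe sets 2726586 and 2726613 of the same gap were high on the same 3 arrays. Among all probe sets tested, 59 had these 3 arrays at least 1 log2 unit above the other 8, all of them unlisted, and 20 of the 59 lay in that gap of 148 unlisted probe sets. Only 4 of the 59 were members, the fourth being 3285851, at 10.90, 11.99 and 11.86 on those arrays. Probe sets 2536050, between AGXT and SNED1, and 2787037, between CLGN and UCP1, also spread over a wide range, from 6.33 to 11.27 and from 5.49 to 10.48, with a different pattern over the arrays.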

How the data were processed

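Total RNA of 11 cultures was labelled by the Affymetrix whole-transcript sense method and hybridised to the Human Exon 1.0 ST array, per the labels' protocols. The deposited table holds 1 log2 value per probe set and array, normalized by the authors, by software that the sources used here do not name. Arrays have no read depth, so their number limits the precision. A value of 1e-100 or below was read as no estimate, and 1379735 probe sets with an estimate on all 11 arrays were tested.

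The members and all lists were chosen with earlier results of these data known. Probe sets were named from the platform annotation, and RefSeq GRCh38.p14 served for gene names and order only. The files used here give no probe sequences or coordinates, so none are printed. No term, background or scaling was added to the deposited values.

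limma 3.58.1 (R 4.3.3; lmFit, eBayes with a trend) compared knockdown with control in a fit of 2 groups, each shRNA with control in a fit of 3, and the constructs in a fit of 4, with Benjamini-Hochberg adjustment over all probe sets and a threshold of 0.05. For HTATSF1 an exact permutation test was used. The fits were first tested on simulated data. There the knockdown against control fit called 0% of 200 probe sets that carried a planted shift of 0.25 log2 units. It called 5.5% of 200 when the shift was 0.5, and 58% of 200 when the shift was 1. Same-numbered arrays of different constructs correlated between -0.17 and 0.19 in their deviations, over 0.1 in 4 of 15 pairs, so the numbers were not taken as pairs.

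Named members were the 12 brightest, the 8 longest runs, members that passed or otherwise up to 5 per direction with groups apart, 3 on each side of the limit and 5 with the largest spread within constructs. Also named, after their values were seen, were 3 with the smallest adjusted p, those that passed in an alternative, probe set 3555331, and single gaps and genes. Other tools were Python 3.11.15, pandas 2.3.3, numpy 2.4.6 and scipy 1.17.1. Some genes and gaps are not reported here.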

Additional observations from a re-analysis of the deposited data

Results flagged for a closer look

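In 11 of 104 groups of arrays 1 array lay far from the rest by Dixon's criterion, which chance alone meets in about 1 group in 20 where probe sets are not chosen on their values. Many of these were chosen for a large difference or spread, so that rate is no baseline for the count. Among the 5 controls, the median of single members was highest on the first GFP shRNA array (9.72), probe set 3658545 was highest on the second GFP shRNA array (14.10), and probe set 3670028 was highest on the second empty vector array (10.11). Among the 6 knockdown arrays, the first shRNA B array was lowest for 2603768 (13.84) and highest for 2537014 (10.17) and 3082552 (10.27). The second shRNA B array was lowest for 2817530 (8.86) and for 3555331 (9.56), where it still lay above every control. It was highest for 2726619 (12.29), 2726586 (12.20) and 2726613 (12.16), the probe sets that were also high on 2 control arrays. No cause of these values was tested.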

How the results depend on the processing

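Over 21 alternatives the median difference of the members stayed above 0 and that of the equally bright listed probe sets below 0 (-0.071 to -0.033). The members' median was 0.015 when only runs of 2 or more were kept and 0.060 to 0.093 under the others. One member was called without the variance trend in knockdown against control (2517709) and 1 among the 4 constructs with signal above the array median plus 32 (3838619; 1055 calls in the whole table against 2). With a limit of 8.5, 1 was called in each of 4 comparisons, probe set 3555331. A limit of 10 gave 7023 members, 407 runs and 1947 members within 1 gene, and a limit of 8.5 gave 29933, 2645 and 7527. Counting numbers at most 10 apart as neighbours gave 2351 runs. With the replicate number as a block the members' median was 0.078 and 0 members were called, with 10 calls in the whole table against 17.

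With each array left out in turn, the members' median ranged from 0.062 to 0.084, the number of members from 17072 to 17251, runs from 1264 to 1295, members within 1 gene from 4412 to 4483 and the HTATSF1 difference from -0.34 to -0.26. Members called ranged from 0 to 1 for shRNA A against control, the call being 2529287 without the third shRNA B array, and were 0 throughout in the other 5 comparisons. The cause of these changes was not tested. The HTATSF1 difference was -0.82 with signal above the array median plus 32, a different scale because the array median is subtracted before the log. Under all other alternatives it lay between -0.34 and -0.24.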

Other observations

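Among the gaps of at least 8 members, the highest positive differences after PRKXP1 to LINS1 were in gaps with no unlisted coding gene in RefSeq order or with no settled order. All 8 members between MYST2 and FLJ45513 were higher in knockdown, from 10.66 ± 0.092 (SD, n = 5) to 10.89 ± 0.18 (SD, n = 6). All 10 members between GDI2 and ANKRD16, next to a regulator of Rab proteins, were higher, from 10.09 ± 0.075 (SD, n = 5) to 10.31 ± 0.11 (SD, n = 6). All 9 members between KHDRBS1, which encodes the RNA-binding protein Sam68, and TMEM39B were higher, from 10.60 ± 0.094 (SD, n = 5) to 10.83 ± 0.11 (SD, n = 6). In each of these gaps the lowest knockdown array fell within the control range. Of the 170 gaps with at least 8 members, 0 had groups that did not overlap, and 77 had a lower mean in knockdown.

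The 18 members between KLHL20 and GAS5, a host gene of small nucleolar RNAs, averaged 10.18 ± 0.068 (SD, n = 5) in control and 10.25 ± 0.0998 (SD, n = 6) in knockdown. Within the numbers of THAP4, 7 of 8 members were higher in knockdown while the gene's own value differed by -0.19. Probe set 3838619, 15 numbers above the ribosomal protein gene RPL13A and 6 below FCGRT, an Fc receptor gene, read 11.21 ± 0.14 (SD, n = 5) in control and 10.83 ± 0.21 (SD, n = 6) in knockdown, with shRNA A at -0.20 and shRNA B at -0.58 against the same controls.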
